A study of Drosophila melanogaster with 24 samples.

Results

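Early Drosophila melanogaster embryos that expressed activated Notch and activated Ras together were compared with GAL4 control embryos. The comparison rests on 6 of the 24 arrays of the series, chosen by their labels: 3 arrays of combined embryos and 3 of control embryos. All embryos were frozen between 5 h 45 min and 6 h 45 min after egg lay. Combined embryos had mothers homozygous for arm-GAL4 and fathers homozygous for UAS-NotchICD and UAS-Ras85D(V12). Control embryos had the same kind of mothers and w1118 fathers, so arm-GAL4 is carried by every group and its own effect is not part of any difference below. Embryos with UAS-NotchICD alone, called Notch embryos, and with UAS-Ras85D(V12) alone, called Ras embryos, were sampled on 3 arrays each in the same window. GAL4 is a yeast activator that switches on transgenes placed behind UAS sites, and the armadillo promoter drives it in most cells of the embryo at moderate levels. Each array carries RNA of a pooled collection of whole embryos, prepared in independent experiments. Each cross used another stock of fathers, so a transgene and the stock it came in cannot be told apart.

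Notch is a cell surface receptor whose intracellular domain, NotchICD, is released by ligand and enters the nucleus, where it turns the DNA-binding protein Su(H) into an activator. Its best known targets in the fly are the genes of the Enhancer of split complex, which encode repressors and Bearded-family proteins, and in the embryonic ectoderm Notch keeps neighbours of a neural precursor from becoming neural. Ras85D is the GTPase that links receptor tyrosine kinases (RTKs) to the MAP kinase cascade, which acts on ETS-family factors such as the repressor encoded by aop. The Ras85D(V12) form stays active without a receptor signal. The series set out to find where these pathways share transcriptional targets.

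Levels are given on the log2 scale of the deposited values, and differences are combined minus control unless stated otherwise. Errors after ± are standard errors of the limma fit with n = 3 arrays per group. Medians of the 6 arrays over the tested genes lay between 6.79 and 6.84, and replicates of a group differed by a root mean square of 0.196 to 0.269. GAPDH control probe sets read higher at the 3' than at the 5' end, and a larger excess is a sign of less intact RNA. The GAPDH excess was 0.902 ± 0.195 in combined and 0.763 ± 0.183 in control embryos (SD, n = 3 each, exact permutation test, two-sided p = 0.4, where 3 against 3 arrays cannot go below 0.1). The actin excess was 0.590 ± 0.101 in combined and 0.608 ± 0.063 in control embryos (SD, n = 3 each, exact permutation test, two-sided p = 0.8). The probe sets of Notch and Ras85D were not named in the annotation used here, so levels of the transgenes gave no check of the labels. In RNA of whole embryos, fewer cells of a type and less RNA per cell cannot be told apart.

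Combined embryos had lost much of the expression of nerve cell precursor genes and had gained that of several Enhancer of split and RTK-responsive genes. Of 5736 genes or probe sets tested, 399 (6.96%) were called at an adjusted p under 0.05, with 145 (2.53%) higher and 254 (4.43%) lower in combined embryos. Against the same control arrays, 250 of the 399 were also called in Notch embryos and 13 in Ras embryos. Of all genes tested, 5.42% were called in Notch and 0.366% in Ras embryos. By at least 2 log2 units, 16 genes fell and 12 rose, and by at least 3 units 8 fell and 5 rose. The median change was 0.79 among the genes called higher and -0.85 among those called lower, against a median of 0.0076 over all genes tested. In 397 of the 399 the 3 combined values all lay on the same side of the 3 control values, against 28.9% of all genes tested. With the replicate number as a block, 308 genes were called higher and 421 lower, and all 399 were among them. Without control replicate 1 the count of higher genes was 92, and without control replicate 2 it was 95. Of the genes called lower, 57 averaged under 5 in combined embryos, and 26 of those called higher averaged under 5 in control embryos, a range in which the scale flattens and the size of a change is least certain.

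**Figure D1:**
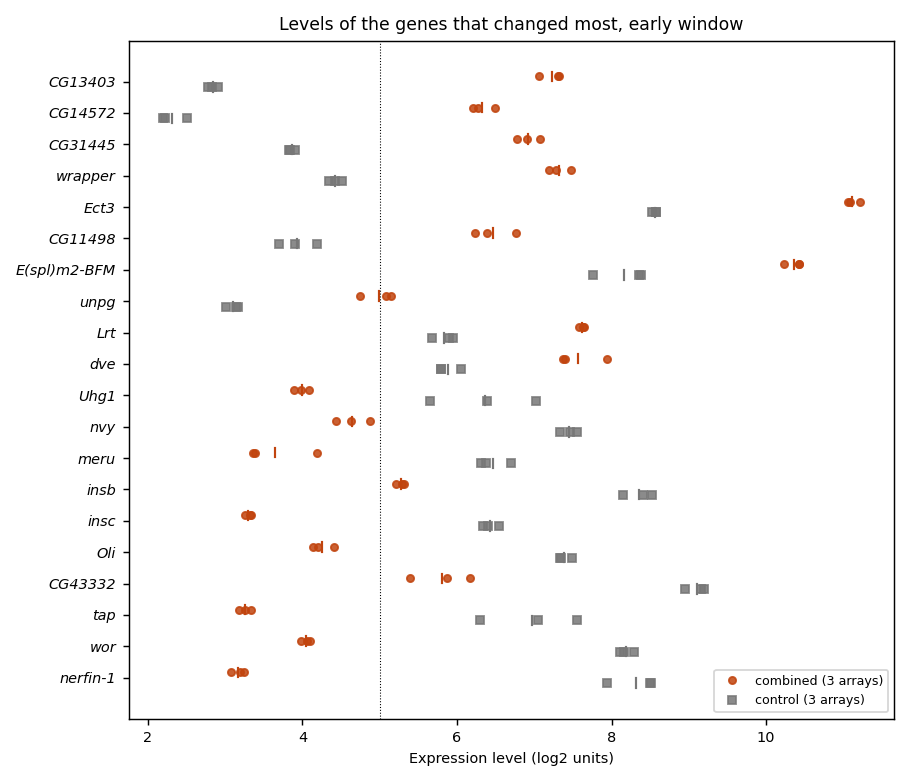
Expression levels in log2 units (x axis) of the called genes that rose most (10) and fell most (10), in 3 combined (circles) and 3 control (squares) arrays. Short vertical lines are group means and the dotted line marks a level of 5. Genes were taken only where combined and control arrays did not overlap; the widest gaps are those of nerfin-1, wor and CG13403.

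The deepest fall was that of nerfin-1, a zinc finger gene of newly born neurons and their precursors. It read 3.24, 3.07 and 3.19 in combined embryos, against 7.94, 8.49 and 8.50 in control embryos, a difference of -5.15 ± 0.26 (adjusted p = 1.5e-11). The combined arrays sit at the bottom of the scale and the control arrays well above it, with no overlap. Another probe set of nerfin-1 gave -1.81, the same direction at a smaller size. The neuroblast gene wor, which encodes a Snail-family zinc finger protein, read 4.06, 4.10 and 3.99 in combined and 8.29, 8.11 and 8.16 in control embryos (-4.14 ± 0.15, adjusted p = 6.2e-14). The arrays of each group lay within 0.2 units of each other, with a gap of about 4 units between the groups.

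Genes of basic helix-loop-helix (bHLH) factors that act in neural precursors fell as far. The neurogenin-family gene tap read 3.25, 3.17 and 3.33 in combined and 6.30, 7.55 and 7.05 in control embryos (-3.71 ± 0.29). Control replicate 1 was lower than the other control arrays and still far above every combined array. Oli, the fly member of the Olig family, read 4.14, 4.20 and 4.41 in combined and 7.34, 7.49 and 7.34 in control embryos (-3.14 ± 0.19). The adapter gene insc, needed for the asymmetric division of neuroblasts, read 3.32, 3.25 and 3.33 in combined and 6.54, 6.33 and 6.40 in control embryos (-3.12 ± 0.14). Both genes had narrow groups with a wide gap between them.

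insb, which encodes a nuclear antagonist of Notch signalling in neural precursors, was at 5.31, 5.29 and 5.21 in combined and 8.52, 8.14 and 8.41 in control embryos (-3.09 ± 0.15). Unlike nerfin-1 or insc it kept a level above 5 in every combined array. CG43332, to which no role is given here, read 5.87, 6.17 and 5.39 in combined and 9.20, 8.95 and 9.16 in control embryos (-3.29 ± 0.29). It was the brightest of the 10 deepest falls in control embryos and among the more variable in combined embryos. meru, a RASSF-family gene of sensory precursor polarity, fell by 2.82 ± 0.21 log2 units, with combined replicate 3 at 4.19 and the others at 3.38 and 3.36. Its other probe set, which did not reach the level minimum, gave -0.85. nvy, of the MTG family of corepressors, fell by 2.81 ± 0.22 log2 units. The remaining member of the 10, Uhg1, is a snoRNA host gene and behaved in its own way across crosses, as described further on.

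Among rises, genes without an assigned role came before the known Notch targets. CG13403 read 7.30, 7.32 and 7.06 in combined and 2.91, 2.83 and 2.77 in control embryos (4.39 ± 0.14, 20.9-fold on this scale, adjusted p = 1.3e-14). CG14572 read 6.50, 6.21 and 6.27 in combined and 2.22, 2.51 and 2.20 in control embryos (4.01 ± 0.31). Control levels of both genes were near the floor of the scale, and every combined array was well above it. CG31445 read 6.77, 7.07 and 6.90 in combined and 3.91, 3.84 and 3.83 in control embryos (3.06 ± 0.22). wrapper, an immunoglobulin-family gene expressed in midline glia, read 7.19, 7.48 and 7.28 in combined and 4.42, 4.34 and 4.51 in control embryos (2.89 ± 0.19). In all 4 genes a level of 5, the minimum used to keep a probe set, lies between the groups.

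Ect3, a beta-galactosidase-family gene, was already bright and rose further, reading 11.05, 11.08 and 11.21 in combined and 8.58, 8.52 and 8.57 in control embryos (2.56 ± 0.12). E(spl)m2-BFM, a Bearded-family gene of the Enhancer of split complex, read 10.42, 10.42 and 10.24 in combined and 8.38, 7.76 and 8.35 in control embryos (2.20 ± 0.17). Control replicate 2 was the lowest of the 6 arrays in this gene. CG11498 rose by 2.53 ± 0.28, the homeobox gene unpg by 1.88 ± 0.21, Lrt, a leucine-rich repeat gene of tendon cells, by 1.78 ± 0.22, and the homeobox gene dve by 1.69 ± 0.26. All 20 genes of both directions kept an adjusted p under 0.05 without any 1 of the 6 arrays.

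**Figure D2:**
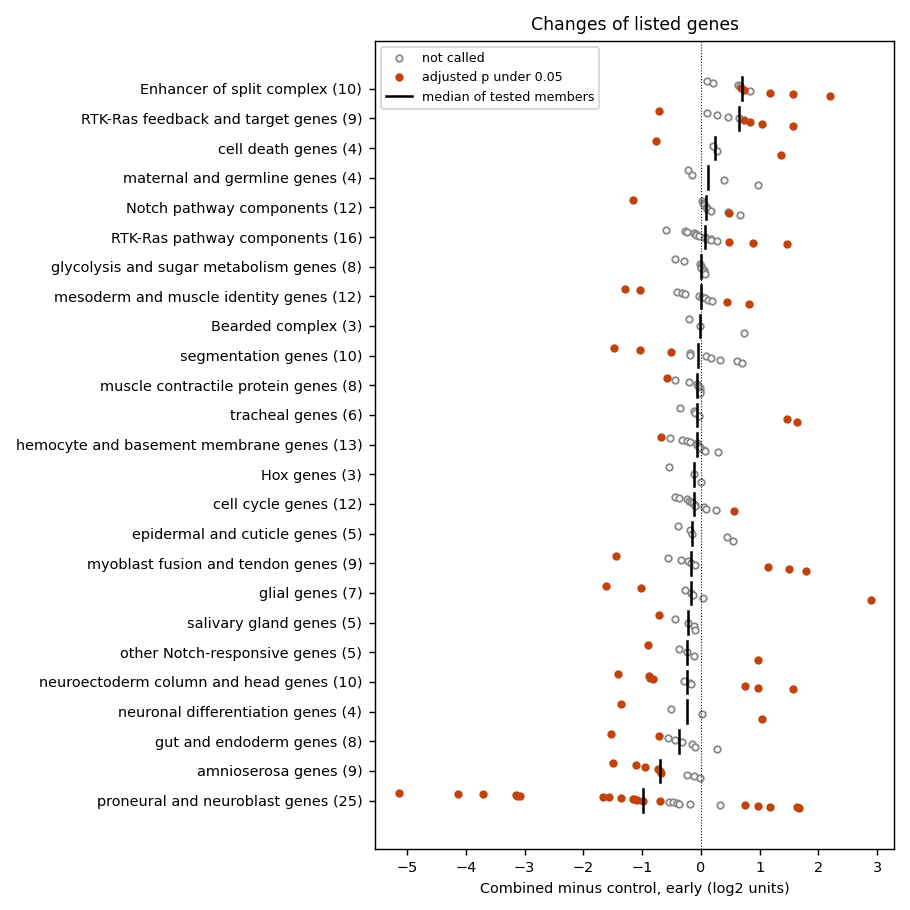
Change of each tested member of 25 gene lists in combined minus control embryos (x axis, log2 units), with the number of tested members in parentheses. Filled points have an adjusted p under 0.05, open points do not, and vertical bars are list medians, which run from 0.71 for the Enhancer of split complex to -0.99 for proneural and neuroblast genes.

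Of 25 tested proneural and neuroblast genes 14 fell and 5 rose, with a median change of -0.99, while 4.43% of all genes tested fell and 2.53% rose. The same shares are the background for the counts of every list below. Leaving out each combined or control array in turn gave 12 to 15 lower and 4 or 5 higher members of this list. In Notch embryos 14 of the 25 were called lower and 4 higher against control (median -0.88). The mean level of the list was 6.52, 6.63 and 6.58 in combined and 7.70, 7.65 and 7.68 in control embryos, with no overlap. Besides nerfin-1, wor, tap, Oli, insc and insb, the zinc finger gene sens of sensory precursors read 4.21, 4.21 and 4.57 in combined and 6.21, 5.97 and 5.84 in control embryos (-1.68 ± 0.18). The neuroblast scaffold gene mira fell by 1.56 ± 0.16 log2 units, ase by 1.36 ± 0.23 log2 units, and the homeodomain gene pros, whose protein ends neuroblast divisions, by 1.15 ± 0.22 log2 units. Of the proneural bHLH genes, ac fell by 1.14 ± 0.13, sc fell by 1.09 ± 0.19 and ato fell by 0.99 ± 0.23 log2 units. A relative of them, l(1)sc, was not called (-0.37 ± 0.19, adjusted p = 0.33). The POU gene nub fell by 0.70 ± 0.19 log2 units, and sna (-0.42 ± 0.17), phyl (-0.55 ± 0.18) and pdm2 (-0.47 ± 0.17) did not pass the test. The block on replicate number called phyl (adjusted p = 0.0343) and pdm2 (0.0249) lower. Probe sets that did not reach the level minimum gave -0.03 for mira and -0.16 and -0.02 for nub.

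The 5 genes of this list that rose encode transcription factors, as do many of those that fell. dpn, a bHLH repressor gene related to the Enhancer of split genes, read 8.59, 8.24 and 8.15 in combined and 6.68, 6.47 and 6.83 in control embryos (1.67 ± 0.27). The groups lay more than 1 unit apart. The Snail-family gene esg, which is also expressed in trachea, read 9.05, 8.85 and 8.89 in combined and 7.37, 7.27 and 7.23 in control embryos (1.64 ± 0.14). The Sox genes D (0.97 ± 0.14) and SoxN (0.74 ± 0.15) and the nuclear receptor gene svp (1.18 ± 0.32) also rose, and in svp combined replicate 1 was the closest to the control arrays at 5.07, against 4.32 to 4.53 in control embryos. Other probe sets gave 1.08 for svp and 0.31 for SoxN.

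Of 4 neuronal differentiation genes tested, 1 fell and 1 rose (median -0.24). The RNA-binding protein gene elav read 7.13, 7.64 and 7.81 in combined and 8.90, 9.04 and 8.72 in control embryos (-1.36 ± 0.31), and without combined replicate 1 its adjusted p was 0.0565. jeb, which encodes the secreted ligand of the receptor tyrosine kinase Alk, rose by 1.04 ± 0.17, and another probe set gave 0.95. Of 7 glial genes, wrapper rose, and gcm and moody fell. gcm, the switch gene for lateral glia, read 6.88, 6.59 and 6.76 in combined and 8.40, 8.22 and 8.48 in control embryos (-1.62 ± 0.13). The receptor gene moody of the blood-brain barrier fell by 1.02 ± 0.15 log2 units, and the glial homeobox gene repo, dim in all 6 arrays, was not called (-0.17 ± 0.19, adjusted p = 0.76). wrapper marks midline glia, whereas gcm marks the lateral kind.

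Enhancer of split genes were the list with the highest median change, 0.71 over 10 tested members, of which 5 rose and none fell. Of all genes tested 2.53% rose. In Notch embryos 8 of the 10 were called higher against control (median 0.97). The mean level of the list was 9.88, 9.84 and 9.55 in combined and 9.07, 8.57 and 8.99 in control embryos. After E(spl)m2-BFM came Kaz-m1, which encodes a Kazal-type protease inhibitor rather than a repressor and read 8.35, 8.18 and 8.14 in combined and 6.78, 6.63 and 6.57 in control embryos (1.56 ± 0.13). E(spl)malpha-BFM read 11.20, 10.98 and 10.79 in combined and 10.08, 9.38 and 9.96 in control embryos (1.18 ± 0.15). The bHLH repressor genes changed less: E(spl)m3-HLH by 0.73 ± 0.17 and E(spl)mdelta-HLH by 0.68 ± 0.20 (adjusted p = 0.010 and 0.048). E(spl)m3-HLH was not called without combined replicate 2 (adjusted p = 0.0704) or control replicate 2 (0.0621). E(spl)mdelta-HLH was not called in these cases either, nor without combined replicate 3, control replicate 3 or the filter on dim probe sets.

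E(spl)mbeta-HLH (0.84 ± 0.27), E(spl)m4-BFM (0.64 ± 0.20) and E(spl)m5-HLH (0.67 ± 0.26) missed the threshold at adjusted p = 0.067, 0.066 and 0.14. Their combined values all lay above their control values, as in 14.5% of all genes tested. E(spl)m7-HLH (0.20 ± 0.19) and E(spl)m6-BFM (0.11 ± 0.20) were not called either. With the replicate block 8 of the 10 were called higher, now including E(spl)mbeta-HLH, E(spl)m4-BFM and E(spl)m5-HLH. Without the block, the count was 3 when combined replicate 2 or control replicate 2 was left out. It was 4 without combined replicate 3, control replicate 3 or the filter on dim probe sets. Of 3 Bearded complex genes tested none was called (median -0.01), with Tom at -0.01 ± 0.11, Brd at -0.20 ± 0.14 and Ocho at 0.73 ± 0.23 (adjusted p = 0.059). At an unadjusted p under 0.05, 1 of the 3 passed, and Ocho was called with the replicate block (adjusted p = 0.000119). Tom and Brd were bright in both groups, with no array of either gene under 11.78.

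Among 12 tested components of the Notch pathway 1 rose and 1 fell (median 0.09). neur, which encodes the ubiquitin ligase that primes Notch ligands and is itself strongly expressed in neural precursors, read 7.40, 7.48 and 7.68 in combined and 8.34, 8.83 and 8.85 in control embryos (-1.15 ± 0.19). Its other probe set gave -1.64. The ligand gene Delta was at 8.74, 8.53 and 8.47 in combined and 8.26, 8.03 and 8.02 in control embryos (0.47 ± 0.14, adjusted p = 0.038), a call that ended without any 1 array other than control replicate 1 (adjusted p up to 0.171). It also ended after array median centring (0.0610) or quantile normalisation (0.0828). Of 5 other Notch-responsive genes Him, an inhibitor of the muscle factor Mef2, rose by 0.96 ± 0.17, and the zinc finger gene klu fell by 0.90 ± 0.23 log2 units. klu was not called without combined replicate 3 (0.0900) or control replicate 1 (0.138).

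RTK-Ras feedback and target genes had a median change of 0.65 over 9 tested members, of which 4 rose and 1 fell. Against the same control arrays, 4 of the 9 were called higher and 1 lower in Notch embryos (median 0.31). In Ras embryos 1 was called higher and 0 lower (median 0.47). The mean level of the list was 7.51, 7.55 and 7.41 in combined and 7.01, 6.88 and 6.94 in control embryos, with no overlap. The head gap gene oc, an Otx-family homeobox gene downstream of Torso signalling at the anterior pole, read 7.87, 7.95 and 7.77 in combined and 6.17, 6.27 and 6.45 in control embryos (1.57 ± 0.16). aop read 12.91, 12.73 and 12.67 in combined and 11.78, 11.80 and 11.62 in control embryos (1.04 ± 0.10). sty, which encodes an inhibitor of RTK signalling, read 8.44, 8.36 and 8.19 in combined and 7.66, 7.41 and 7.43 in control embryos (0.83 ± 0.14). In these 3 genes every combined array was above every control array by at least 0.5 log2 units.

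edl, which encodes a regulator of ETS factors, rose by 0.73 ± 0.16. aos, the gene of a secreted inhibitor of the EGF receptor, was not called at 0.65 ± 0.21 (adjusted p = 0.066). Its combined values all lay above its control values, as in 14.5% of all genes tested. Mkp3, which encodes a MAP kinase phosphatase, was not called either (0.46 ± 0.19, adjusted p = 0.18). The terminal gap gene hkb, another gene of the Torso pathway, fell, with 5.43, 5.38 and 5.10 in combined and 6.03, 6.10 and 5.92 in control embryos (-0.72 ± 0.13). With the replicate block 6 genes of the list were called higher, now including aos (adjusted p = 0.00888) and Mkp3 (0.0431), and 1 lower.

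The median change of 16 tested components of the RTK-Ras pathway was 0.07, with 3 called higher and 0 lower. The FGF receptor gene btl, which is active in trachea and midline cells, read 8.64, 8.25 and 8.25 in combined and 7.03, 6.89 and 6.85 in control embryos (1.46 ± 0.18). The groups lay more than 1 unit apart. tor, the maternally supplied receptor gene of the embryo's poles, read 6.96, 6.95 and 7.01 in combined and 5.65, 6.11 and 6.48 in control embryos (0.89 ± 0.21), and was not called without control replicate 1 (adjusted p = 0.0811). Another maternal transcript, bcd, which encodes the anterior morphogen, read 8.15, 8.00 and 8.05 in combined and 6.54, 7.38 and 7.38 in control embryos, a difference of 0.97 ± 0.49 that was not called (adjusted p = 0.31). In a fit on only the 6 arrays compared, bcd had an adjusted p of 0.0200. Of the other maternal and germline genes tested, osk was at 0.39 ± 0.20, gcl at -0.22 ± 0.15 and aub at -0.16 ± 0.12, and none of the 4 was called (0 of 4 at an unadjusted p under 0.05 in limma). S, which encodes a carrier of EGF receptor ligands, was at 0.48 ± 0.14 (adjusted p = 0.044), and that call ended without any 1 array other than control replicate 3 (adjusted p up to 0.174). The EGF receptor gene Egfr (0.17 ± 0.16) and the FGF receptor gene htl (-0.28 ± 0.23) were not called.

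Mesoderm and muscle identity genes moved in both directions, with 2 of 12 higher and 2 lower (median 0.00). twi, the mesoderm determinant, read 5.92, 5.44 and 5.74 in combined and 5.10, 4.84 and 4.73 in control embryos (0.81 ± 0.13). lmd, a zinc finger gene of fusion-competent myoblasts, was higher by 0.45 ± 0.11 (adjusted p = 0.010) and lost its call without combined replicate 3 (0.0856), control replicate 1 (0.0655) or control replicate 2 (0.0598). kn, an EBF-family gene, read 3.71, 3.89 and 4.21 in combined and 5.44, 5.27 and 4.96 in control embryos (-1.29 ± 0.25). zfh1, a zinc finger homeodomain gene of the mesoderm, read 5.41, 5.80 and 5.80 in combined and 6.95, 6.51 and 6.63 in control embryos (-1.03 ± 0.18). The mesoderm genes that fell and those that rose had no overlap between groups, as in 397 of all 399 called genes.

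Among 9 myoblast fusion and tendon genes 3 rose and 1 fell (median -0.16). Besides Lrt, the adhesion receptor genes hbs (1.50 ± 0.26) and rst (1.15 ± 0.18) rose, both of which act in myoblast fusion and in other tissues. hbs read 6.88, 6.92 and 7.17 in combined and 5.58, 5.25 and 5.64 in control embryos. sing, which encodes a membrane protein of fusing myoblasts, fell by 1.45 ± 0.24 log2 units. Of 8 muscle contractile protein genes, Act87E fell by 0.58 ± 0.13 log2 units, a call lost without combined replicate 1 (adjusted p = 0.0514) or control replicate 2 (0.0523). Both tracheal genes called among 6, btl and esg, rose, and both are also members of other lists. vvl (-0.35), kni (-0.12), knrl (-0.10) and tgo (-0.03), the tracheal genes not called, all had differences below 0.

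Amnioserosa genes, which mark the dorsal extraembryonic cells and the dorsal ectoderm next to them, fell in 6 of 9 tested cases and rose in none (median -0.69). Of all genes tested 4.43% fell. The amnioserosa count was 5 without any 1 of the 6 arrays, after quantile normalisation, and without the filter on dim probe sets. In Notch embryos 5 of the 9 were called lower against control (median -0.73). The mean level of the list was 6.39, 6.32 and 6.15 in combined and 7.06, 6.87 and 6.94 in control embryos. pnr, a GATA factor gene, read 4.69, 5.08 and 4.21 in combined and 5.95, 6.40 and 6.13 in control embryos (-1.50 ± 0.20). Its cofactor gene ush fell by 1.11 ± 0.19 log2 units, the T-box genes Doc1 and Doc3 by 0.95 ± 0.18 and 0.68 ± 0.14 log2 units, Ance, a peptidase gene, by 0.73 ± 0.15 log2 units and Kr by 0.69 ± 0.20 log2 units. zen (-0.01), peb (-0.23) and tup (-0.11) were not called. The groups did not overlap in the 6 genes that fell, as in 397 of all 399 called genes.

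Genes that pattern the neuroectoderm and head moved in both directions: 3 of 10 rose and 4 fell (median -0.23). oc, D and SoxN, named above, were the 3 that rose. ind, a homeobox gene of the intermediate neuroectoderm column, read 4.22, 4.44 and 4.46 in combined and 6.08, 5.41 and 5.90 in control embryos (-1.42 ± 0.17). Dr, which marks the dorsal column, fell by 0.82 ± 0.18 log2 units, and so, a homeobox gene of the eye and head, by 0.86 ± 0.15 log2 units. The head gene ems was at -0.89 ± 0.25 (adjusted p = 0.035), a call that ended without any 1 array other than control replicate 2 (adjusted p up to 0.167). Segmentation genes fell in 3 of 10 cases (median -0.05). hry, a bHLH repressor and pair-rule gene, read 6.81, 6.69 and 6.24 in combined and 7.92, 8.36 and 7.90 in control embryos (-1.48 ± 0.15). ftz fell by 1.04 ± 0.19 log2 units and odd by 0.52 ± 0.09 log2 units, while hh (0.70 ± 0.25) and ptc (0.61 ± 0.19), a ligand and its receptor, were not called at adjusted p = 0.11 and 0.058. The replicate block called ptc higher (adjusted p = 0.00124).

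Other lists held few or no calls. Of 8 gut and endoderm genes the GATA factor gene grn fell by 1.53 ± 0.18 log2 units and hkb fell, and hkb was also the 1 gene of 5 salivary gland genes called. Among 13 hemocyte and basement membrane genes the scavenger receptor gene Sr-CI fell by 0.69 ± 0.16 log2 units, and the hemocyte GATA factor gene srp was at -0.32 ± 0.21 (adjusted p = 0.50). In 12 cell cycle genes CycE, the cyclin of S phase entry, was higher by 0.56 ± 0.16 (adjusted p = 0.037) and lost its call without any 1 array other than combined replicate 1 (up to 0.187). Mcm3 (-0.45 ± 0.15) and PCNA (-0.38 ± 0.14), genes of DNA replication, did not pass the test, and were called lower with the replicate block (adjusted p = 0.0121 and 0.0493).

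Of 4 cell death genes the receptor gene wgn of the tumour necrosis factor pathway rose, with 6.66, 6.60 and 6.87 in combined and 5.32, 5.30 and 5.44 in control embryos (1.35 ± 0.17). egr, which encodes the ligand of this pathway, fell by 0.76 ± 0.15 log2 units. No member was called among 5 epidermal, 3 Hox, 8 glycolysis and 2 heat shock genes, in which limma gave an unadjusted p under 0.05 to 2, 1, 0 and 0. The epidermal gene neo (0.54 ± 0.18, adjusted p = 0.077) was called with the replicate block (adjusted p = 0.0105). Antp (0.01 ± 0.16), Dfd (-0.55 ± 0.18), Pgi (0.00 ± 0.10), Ald1 (0.07 ± 0.22), Hsp27 (-0.32 ± 0.18) and Hsp68 (-0.59 ± 0.60) were not called. Dfd had an adjusted p of 0.085, and of 0.0219 with 1 fit per window. The ribosomal protein gene RpL32, the 1 housekeeping gene tested, was at 13.09, 12.99 and 12.99 in combined and 13.11, 13.07 and 12.98 in control embryos (-0.03 ± 0.09).

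What Ras85D(V12) added to NotchICD was read from combined minus Notch embryos. Of the 5736 genes tested 13 (0.227%) were called, 5 higher (0.0872%) and 8 lower (0.139%) in combined embryos, against 573 at an unadjusted p under 0.05. Notch replicate 1 stood apart from the other Notch arrays, with a root mean square up to 0.434 between replicates, and for example bcd read 4.67, 7.77 and 7.68 in Notch embryos. Without Notch replicate 3 the count of higher genes was 14, without Notch replicate 2 it was 10, and with the replicate block 23 were called higher and 23 lower. A fit on only the 6 arrays compared called 3 higher and 3 lower. The count of genes called lower was 15 after array median centring, and it was 4 without combined replicate 1 and 5 without combined replicate 3.

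CG31445 led this comparison, with 6.77, 7.07 and 6.90 in combined, 3.89, 3.70 and 3.90 in Notch, 5.43, 5.57 and 5.03 in Ras and 3.91, 3.84 and 3.83 in control embryos. Notch embryos were at the control level, Ras embryos in between and combined embryos highest, and combined minus Notch was 3.09 ± 0.22 (adjusted p = 6.4e-08). The proteolipid-family gene M6 read 8.85, 9.03 and 8.85 in combined, 7.08, 7.55 and 7.36 in Notch, 8.35, 8.66 and 8.41 in Ras and 7.31, 7.30 and 7.11 in control embryos (combined minus Notch 1.58 ± 0.16, combined minus control 1.67 ± 0.16). Another probe set of M6 gave 2.48 for combined minus control. Combined and Ras arrays were all higher than Notch and control arrays. In M6 combined minus Notch was not called with the replicate block on only the arrays compared (adjusted p = 0.0620).

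The zinc transporter gene ZnT77C had the same order, with 6.95, 6.97 and 6.94 in combined, 6.21, 5.91 and 5.97 in Notch, 6.92, 6.78 and 6.78 in Ras and 5.94, 5.68 and 5.86 in control embryos (combined minus Notch 0.92 ± 0.11, not called with the replicate block on only the arrays compared, adjusted p = 0.196). CG10492 was different: it read 6.48, 6.68 and 6.38 in combined embryos and between 5.70 and 6.03 in every array of the other crosses, with combined minus Notch at 0.60 ± 0.10 and combined minus control at 0.54 ± 0.10. Neither single transgene was called against control in this gene (Notch -0.06, Ras -0.09). In a fit on only the arrays compared its combined minus Notch difference had an adjusted p of 0.521. mdlc was higher by 0.55 ± 0.11 over Notch and by 0.37 ± 0.11 over control embryos (adjusted p = 0.039 and 0.046), and both calls ended without combined replicate 1 or 3 (adjusted p up to 0.266). The first also ended without Notch replicate 1 or 2, and the second without control replicate 1 or 2.

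zfh1 and gcm were lower in combined than in Notch embryos. zfh1 read 5.41, 5.80 and 5.80 in combined, 6.79, 6.61 and 6.45 in Notch, 6.12, 5.92 and 5.84 in Ras and 6.95, 6.51 and 6.63 in control embryos, and combined minus Notch was -0.95 ± 0.18 (adjusted p = 0.019, and 0.148 in a fit on only the arrays compared). Leaving out combined replicate 1, combined replicate 3, Notch replicate 1 or Notch replicate 2 ended that call, with an adjusted p of at most 0.172. gcm read 6.88, 6.59 and 6.76 in combined, 7.73, 7.66 and 7.45 in Notch, 8.05, 8.10 and 8.20 in Ras and 8.40, 8.22 and 8.48 in control embryos, and combined minus Notch was -0.87 ± 0.13 (adjusted p = 0.0021, and 0.102 in a fit on only the arrays compared). In gcm the order of the crosses was combined lowest, then Notch, Ras and control, with no overlap between neighbours. None of the 9 RTK-Ras feedback and target genes, the 10 Enhancer of split genes or the 25 proneural and neuroblast genes was called for combined minus Notch, where their medians were 0.17, -0.21 and -0.03, and where 2, 1 and 2 of them had an unadjusted p under 0.05 in limma.

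NotchICD added to Ras85D(V12), read from combined minus Ras embryos, gave 632 calls (11%), 291 higher (5.07%) and 341 lower (5.94%). This comparison and that with control embryos share the 3 combined arrays. nerfin-1 read 8.31, 8.75 and 8.39 in Ras embryos and the combined minus Ras difference was -5.32 ± 0.26. Ras embryos were at the control level in nerfin-1, wor (combined minus Ras -4.15 ± 0.15) and insc (-3.12 ± 0.14). Enhancer of split genes were called higher in 7 of 10 cases (median 0.90), and proneural and neuroblast genes lower in 17 and higher in 3 of 25 (median -0.95). RTK-Ras feedback and target genes were called higher in 2 of 9 cases and lower in 1 (median 0.19). With the replicate block the counts were 595 higher and 533 lower, and without Ras replicate 2 the count of higher genes was 148.

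**Figure D3:**
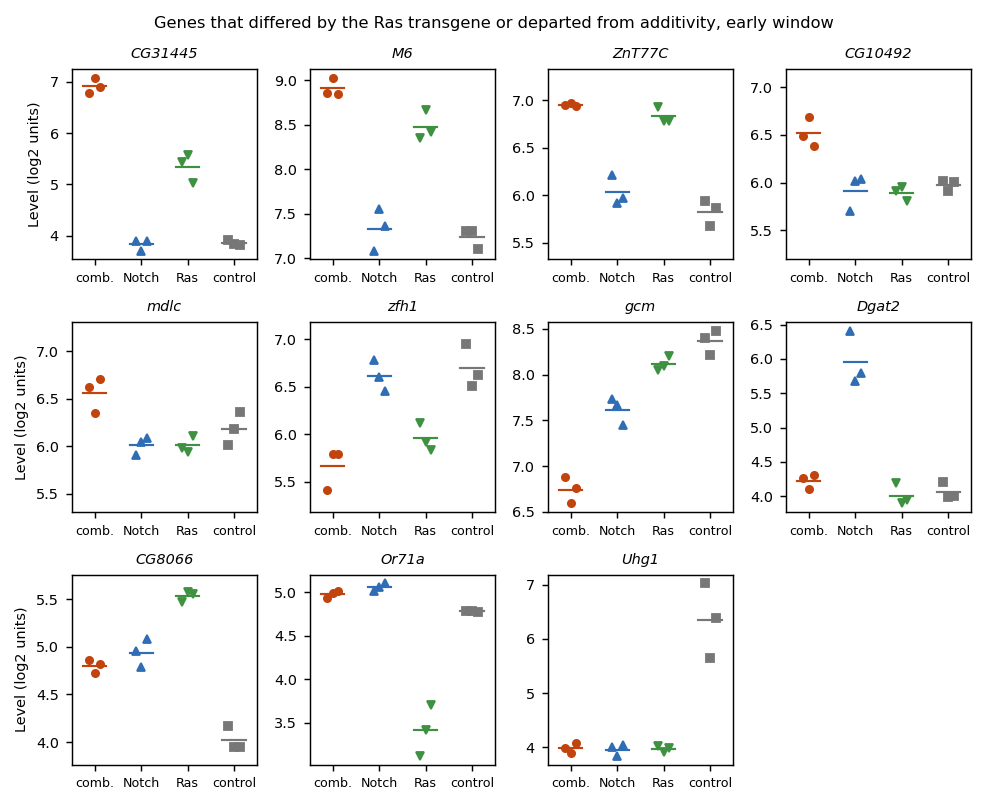
Expression levels in log2 units (y axis, a range of its own per gene) of 11 genes called for combined minus Notch or for the interaction, in 3 arrays each of combined, Notch, Ras and control embryos of the early window. Points are arrays and lines are means; CG31445 is at the control level in Notch embryos and highest in combined embryos, while Uhg1 is at 3.83 to 4.08 in every transgenic array.

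Departure from additivity was tested as the combined effect minus the sum of the Notch and Ras effects, all on the log2 scale and all against the same control arrays. It was called for 8 genes (0.139%), 4 with a positive (0.0697%) and 4 with a negative value (0.0697%), against 576 at an unadjusted p under 0.05. Uhg1 had the largest value, 2.42 ± 0.29 (adjusted p = 0.00027). It read 3.99, 3.90 and 4.08 in combined, 4.0, 3.83 and 4.04 in Notch and 4.02, 3.90 and 3.99 in Ras embryos, against 7.03, 5.65 and 6.39 in control embryos. Every transgenic array was at the same low level, and adding both single effects to the control mean would give a level below that of any array. Since each cross had its own stock of fathers, the transgenes and the stocks cannot be told apart here.

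CG31445 exceeded the sum of both single effects by 1.60 ± 0.32 (adjusted p = 0.049), a call that ended without any 1 of the 12 early arrays (adjusted p up to 0.134). Dgat2, an acyltransferase gene, read 4.26, 4.10 and 4.31 in combined, 6.41, 5.67 and 5.79 in Notch, 4.19, 3.89 and 3.94 in Ras and 4.21, 3.98 and 4.0 in control embryos. It was high in Notch embryos only, so its interaction was -1.68 ± 0.28 (adjusted p = 0.011), and combined minus Notch was -1.74 ± 0.20. Without control replicate 3 the interaction of Dgat2 was no longer called. CG8066 read 4.86, 4.72 and 4.82 in combined, 4.95, 4.79 and 5.08 in Notch, 5.47, 5.57 and 5.56 in Ras and 4.17, 3.95 and 3.95 in control embryos (interaction -1.65 ± 0.25). Its combined level was close to that of Notch embryos and under that of Ras embryos.

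Or71a, an odorant receptor gene, read 4.94, 5.00 and 5.01 in combined, 5.02, 5.06 and 5.10 in Notch, 3.12, 3.42 and 3.71 in Ras and 4.78, 4.78 and 4.78 in control embryos (interaction 1.29 ± 0.23, adjusted p = 0.018). It was low in Ras embryos only, and its call ended after quantile normalisation (0.0948) and without any 1 of 6 arrays (up to 0.0649). CG10492 departed from additivity by 0.69 ± 0.14 (adjusted p = 0.049). That call ended after array median centring (0.111), quantile normalisation (0.0948) or a stricter filter (0.0827), in a fit on only the arrays compared (0.270), and without any 1 of 9 of the 12 arrays (up to 0.177). With the replicate block 26 genes had a positive and 10 a negative interaction. Without Notch replicate 3 the counts were 9 and 4, and without Notch replicate 1 or Ras replicate 1 or 2 the positive count was 1. Without control replicate 3 the counts were 1 and 2.

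Some genes were called in combined embryos while neither single cross was called against the same control arrays, which by itself does not show that combined and single crosses differ. Against control embryos 5.42% of all genes were called in Notch embryos (1.94% higher, 3.49% lower) and 0.366% in Ras embryos. Cyp6d5, a cytochrome P450 gene, read 6.16, 6.10 and 5.41 in combined and 7.44, 7.27 and 7.23 in control embryos (-1.42 ± 0.24), with Notch at -0.37 and Ras at -0.80 against control. Combined minus Notch was -1.06 ± 0.24 in this gene and was not called (adjusted p = 0.066). Pepck2, a gluconeogenic enzyme gene, read 5.53, 5.36 and 5.30 in combined and 6.77, 6.66 and 6.61 in control embryos (-1.28 ± 0.20), with Notch at -0.60 and Ras at 0.29. Of this pair, Cyp6d5 had both single differences below 0 and Pepck2 had them on opposite sides of 0.

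CG16813 rose by 1.21 ± 0.25, with Notch at 0.82 and Ras at 0.06. The ryanodine receptor gene RyR, at or under 4.46 in all 6 arrays, fell by 1.19 ± 0.25 log2 units, with Notch at -0.75 and Ras at -0.62. The serpin gene Spn43Aa was at 3.54, 3.53 and 3.29 in combined and 5.35, 5.48 and 4.06 in control embryos (-1.51 ± 0.41, adjusted p = 0.027), and this call ended without any 1 array other than control replicate 3 (adjusted p up to 0.146). The interaction was called in none of these 5 genes.

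The late window, 7 h to 8 h after egg lay, had its own 3 combined and 3 control arrays, and was used to ask which early changes were of another size later. Combined minus control was called for 869 genes late (15.1%), 438 higher (7.64%) and 431 lower (7.51%). Of the early calls, 88 higher genes were also higher late, which is 60.7% of the early and 20.1% of the late list, and 169 lower genes were also lower late, 66.5% of the early and 39.2% of the late list. The effect itself differed between windows in 146 genes (2.55%), with late minus early positive in 67 (1.17%) and negative in 79 (1.38%), and 49 of the 399 early calls were among them. Without control replicate 1 of the early window the positive count was 34, and without control replicate 3 of the early window the negative count was 45. With the replicate block the counts were 183 and 155. The 3' minus 5' difference of GAPDH was 1.43, 1.91 and 2.58 in late combined arrays and 3.03, 3.91 and 2.57 in late control arrays, a spread that early arrays did not have. The actin difference was 0.271, 0.593 and 0.429 in late combined and 0.685, 0.885 and 0.365 in late control arrays. In the early combined and control arrays it lay between 0.474 and 0.671. The part of RNA integrity in the differences between windows was not tested.

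**Figure D4:**
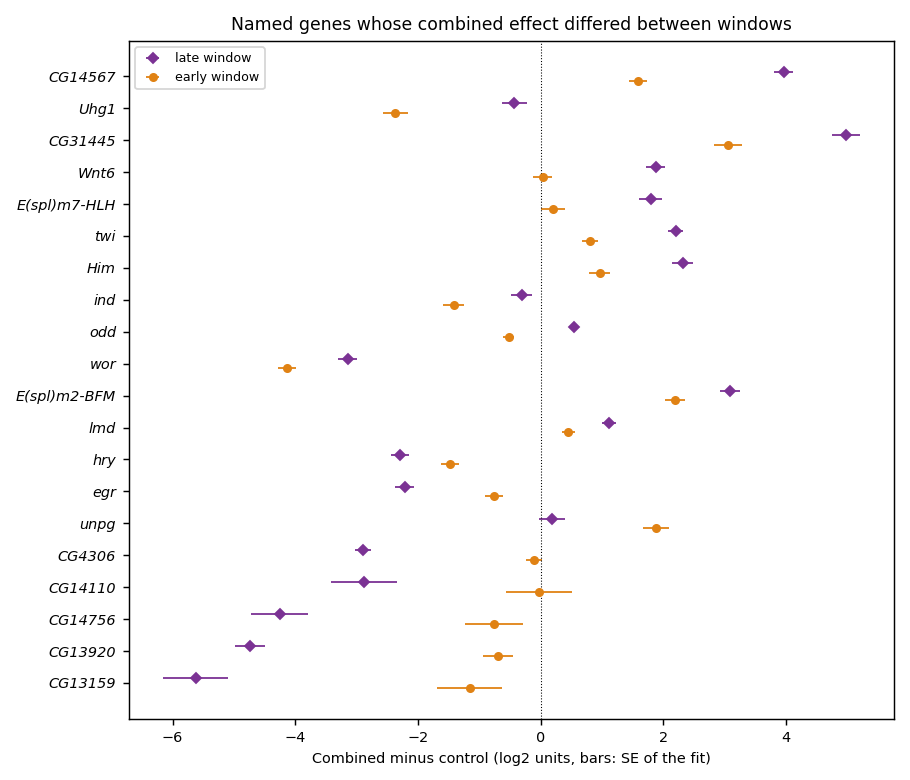
Combined minus control (x axis, log2 units, bars are standard errors of the fit) in the late (diamonds) and early (circles) window for the 20 named genes whose effect was called different between windows. CG13159, CG13920 and CG14756 are far below 0 late and closer to it early, at -1.16, -0.69 and -0.76, while unpg and ind are displaced from 0 early and near 0 late.

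The most negative values came from genes that were higher in each late control array than in any early control array. CG13159 had combined minus control at -5.62 ± 0.53 late and -1.16 ± 0.53 early, with late levels of 4.98, 5.36 and 4.79 in combined and 10.81, 11.15 and 10.03 in control embryos. CG13920 (late minus early -4.05 ± 0.35), CG14756 (-3.49 ± 0.67) and CG4306 (-2.78 ± 0.18) were likewise lower in all combined arrays and in early control arrays than in late control arrays. CG14110 was at -2.86 ± 0.76 (adjusted p = 0.047), a call that ended without any 1 of 10 arrays (up to 0.157). None of these 5 genes was called in the early window, although a fit on only the 6 early arrays called CG13159 (adjusted p = 0.0325), CG13920 (0.00424) and CG14756 (0.0418).

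Effects that were larger late included those of CG14567, with combined minus control at 3.96 ± 0.15 late and 1.59 ± 0.15 early, and CG31445, at 4.98 ± 0.22 late and 3.06 ± 0.22 early. Wnt6, a Wnt ligand gene, was at 3.41 to 3.53 in all 6 early arrays, and read 4.99, 5.51 and 5.39 in combined and 3.44, 3.41 and 3.41 in control embryos late (late minus early 1.84 ± 0.22). E(spl)m7-HLH, not called early, read 12.16, 12.39 and 12.30 in combined and 10.43, 10.46 and 10.59 in control embryos late, so that its effect differed by 1.59 ± 0.27. All 10 Enhancer of split genes tested were called higher late (median 1.78), against 5 early, and the difference between windows was called in 5 of them. twi (1.39 ± 0.18), Him (1.35 ± 0.25) and lmd (0.67 ± 0.15), genes of mesoderm and muscle precursors, also had larger effects late.

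Other effects were smaller late or turned. unpg was at 1.88 ± 0.21 early and 0.18 ± 0.21 late (late minus early -1.70 ± 0.29). ind was low in combined embryos early and low in both groups late, when it read 4.14, 4.11 and 4.20 in combined and 4.20, 4.77 and 4.41 in control embryos (late minus early 1.11 ± 0.24). Uhg1 read 3.98, 3.99 and 3.92 in combined and 4.12, 4.41 and 4.64 in control embryos late, and its late minus early value was 1.94 ± 0.29. odd was lower early and higher late (0.54 ± 0.09), 1 of 3 genes called in opposite directions. wor remained called lower late (-3.15 ± 0.15) with a smaller effect than early (late minus early 0.99 ± 0.21). Of the 25 proneural and neuroblast genes 11 were called lower and 6 higher late (median -0.08), and the difference between windows was called positive in 6 and negative in 1.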

How the data were processed

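Each array of the Affymetrix DrosGenome1 design has 1 log2 value for every probe set, as deposited by the authors. GCRMA and limma were used for them, per the submitters' processing notes, with versions not given in the sources used here. Such processing normalises arrays against each other, so a shift shared by most genes would not be seen. Of 14010 probe sets 44 controls were left out, and probe sets at 5 or more on at least 3 of 24 arrays were kept. Of several probe sets of a gene the one with the highest mean was kept, leaving 5736 genes or unnamed probe sets, 5020 with 1 symbol in the platform annotation, 138 with several and 578 with none. Symbols were matched to RefSeq's gene table, and 49 had no match.

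In R 4.3.3, limma 3.58.1 fitted the means of all 8 groups over 24 arrays (functions lmFit and eBayes, 16 residual and 4.09 prior degrees of freedom), with Benjamini-Hochberg adjustment over all genes tested within each comparison. The 3 arrays per group limit the precision, and 1 spread per gene is shared by all groups. In simulated data for combined against control embryos (5736 genes), 40.3%, 95.5% and 100% of genes changed by 0.5, 1 and 2 log2 units were recovered, with 6 false calls among 163. The simulated arrays had independent noise, and all other groups were set to the early control mean. The real arrays differ in both respects, so these rates need not hold for them. Per the series' design text, collections were made in parallel sets. Arrays with the same number in combined and control embryos deviated together (r = 0.295, 0.256 and 0.156 over genes), so the replicate number was used as a block in an alternative fit.

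Named were the 10 largest rises and falls among called genes without overlap, up to 4 called members of each of 27 lists (or 2 where none was called), and up to 5 genes per other comparison and direction. Other list members were named after their values were seen. The members, lists and rules were chosen with earlier results of these data known. Alternatives were other scalings, filters, probe set rules and fits, and leaving out each array.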

Additional observations from a re-analysis of the deposited data

Results flagged for a closer look

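The effect of the combined transgenes differed between windows by a test of the difference itself in the following named genes, given as late minus early in log2 units. The value was negative for CG13159 (-4.46), CG13920 (-4.05), CG14756 (-3.49), CG14110 (-2.86), CG4306 (-2.78), the homeobox gene unpg (-1.70), the ligand gene egr (-1.46) and the pair-rule gene hry (-0.81). It was positive for CG14567 (2.38), Uhg1 (1.94), CG31445 (1.92), Wnt6 (1.84), E(spl)m7-HLH (1.59), twi (1.39), Him (1.35), ind (1.11), odd (1.06), wor (0.99), E(spl)m2-BFM (0.89) and lmd (0.67). In wor and ind a positive value means a smaller fall late than early, and in hry and egr a negative value means a deeper fall late.

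The combined effect also differed from the sum of the Notch and Ras effects in 6 named genes of the early window. The interaction was 2.42 for Uhg1, 1.60 for CG31445, 1.29 for Or71a and 0.69 for CG10492, and it was -1.68 for Dgat2 and -1.65 for CG8066. The call of CG31445 ended without any 1 of the 12 early arrays, and also after other scalings or with another filter.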

How the results depend on the processing

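Among the genes named by rule, no called change turned its direction under any setting run. Other list members were checked gene by gene only with the replicate block within window. Counts of calls moved with the replicate block, for which same-numbered arrays were taken as pairs. Within window, the block called 308 genes higher and 421 lower for combined against control, 23 and 23 for Ras added to Notch, 595 and 533 for Notch added to Ras, 26 and 10 for the interaction, 183 and 155 for the difference between windows, and 667 higher for combined against control late. It ended no call of a named gene for combined against control, and called neo, E(spl)mbeta-HLH, E(spl)m4-BFM, E(spl)m5-HLH, Ocho, phyl, pdm2, aos, Mkp3, ptc, Mcm3 and PCNA in addition (adjusted p 0.000119 to 0.0493). Leaving out Notch, Ras or late arrays was chosen after seeing the data. On only the arrays compared, the block called 332 higher and 402 lower for combined against control, 1 and 0 for Ras added, 684 and 554 for Notch added, and 131 and 198 between windows. Without the block, a fit on only the arrays compared gave 265 higher for combined against control, 3 and 3 for Ras added, 483 higher for Notch added and 244 higher late. With 1 fit per window, 3 genes were higher for Ras added. Without the filter on dim probe sets, 9 were higher for Ras added and 8 had a negative interaction, and the stricter filter left 0 positive and 2 negative. Median centring gave 15 lower for Ras added and 2 positive interactions, and quantile normalisation gave 13 lower, 1 positive and 7 negative.

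Leaving out each array in turn gave 92 to 110 genes higher and 183 to 217 lower for combined against control, 4 to 14 and 4 to 9 for Ras added, 148 to 264 and 228 to 275 for Notch added, 1 to 9 and 2 to 5 for the interaction, 34 to 78 and 45 to 92 between windows, and 289 to 479 and 347 to 397 late. CG8066 was not called against control with the mean of its probe sets (adjusted p = 0.0968). Levels under 5 are dim on this scale, and the size of a change that ends there is uncertain.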
